A study of Mus musculus with 16 samples.

Results

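The distal end of mouse chromosome 6 was followed gene by gene, in libraries given as ventral posterolateral thalamus and labelled RGS4KO or wild type (WT). The block holds the genes whose start in the GENCODE annotation of build mm10 lies on chromosome 6 in the 5 Mb that end at 150 Mb and whose mean over the 16 libraries was at least 0.3 CPM (counts of a gene scaled to the library's reads in genes). Of 87 annotated genes with a start there, 45 met the minimum and 42 did not, among them 6 with no read in any library. These 45 genes stand within 38924 genes in the count tables, of which 17347 met the same minimum. They comprise 33 protein-coding genes, 7 noncoding RNAs and 5 pseudogenes, with 24 on the plus and 21 on the minus strand, and all 45 entered the model. The block was chosen because genes there differed between the genotypes in these libraries. Every genotype value and call below, and how stable a call was, therefore describes that choice and is no independent evidence of a difference. Effects of CFA and the genotype by CFA interaction played no part in the choice and were tested.

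The study concerns RGS4, which speeds the switching off of G proteins, in lasting pain. There were 4 groups of 4 libraries, namely WT naive, RGS4KO naive, WT after CFA and RGS4KO after CFA, and CFA (commonly complete Freund's adjuvant, an agent of inflammatory pain) is not spelled out in the labels. Each library pooled 4 punches of 12 gauge from both sides of the brains of 2 mice. The series text describes mice with a floxed RGS4 allele given a Cre-carrying adeno-associated virus, the labels name only a KO genotype, and neither strain, age nor the promoter of Cre is given in the sources used here. The labels give all animals as female and the protocol names males. Rgs4 lay between 77.3 and 96.8 CPM in all 16 libraries, with 81.3 ± 2.74 CPM (SD, n = 4) in RGS4KO naive against 80.9 ± 3.66 in WT naive and 84.1 ± 5.5 against 89.3 ± 6.66 after CFA, so the genotype names are used here only as labels.

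The block is defined by position, and its genes have various known roles. Itpr2 encodes a calcium channel of the endoplasmic reticulum that opens on inositol trisphosphate and is prominent in astrocytes, and Sspn (sarcospan) a membrane protein of the dystrophin complex. Bhlhe41 encodes a repressor and Arntl2 a partner of CLOCK, both of which act on E-box sequences in the circadian clock, and Bcat1, whose start lies just before the block, encodes the cytosolic enzyme that begins the breakdown of branched-chain amino acids.

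At the left edge, the last start before the block was that of Bcat1 (chr6:144993835-145076184, minus strand), and the first start inside was that of Gm26666 (chr6:145047559-145050430, plus strand), an antisense gene that overlaps Bcat1. The last member was the noncoding Gm21814 (chr6:149566090-149583656, plus strand). The member nearest the level minimum was Gm17216, with a mean of 0.308 CPM, and the first gene under it was 1700073E17Rik, with 0.284 CPM.

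Promoter sequences are shown for the called members at 1 CPM or more with the largest differences in each direction that the RefSeq promoter table (build GRCm38.p6) holds, because these genes differed in opposite directions within the same stretch. Lmntd1 and Sspn were higher and Arntl2 and Etfrf1 lower in libraries labelled RGS4KO. For each, the longest stretch of the 250 bases before the RefSeq start that lies outside annotated exons is printed 5′ to 3′, and capitals mark a match to 1 of 4 motifs searched on both strands, which were the E-box CACGTG, the CCAAT box CCAAT, the GC box GGGCGG and the TATA box TATAAA. The stretches are chr6:145434926-145435175 (minus strand, 250 bases) for Lmntd1, chr6:145931738-145931872 (plus, 135 bases) for Sspn, chr6:146805280-146805435 (plus, 156 bases) for Arntl2 and chr6:145211006-145211133 (plus, 128 bases) for Etfrf1.
Lmntd1: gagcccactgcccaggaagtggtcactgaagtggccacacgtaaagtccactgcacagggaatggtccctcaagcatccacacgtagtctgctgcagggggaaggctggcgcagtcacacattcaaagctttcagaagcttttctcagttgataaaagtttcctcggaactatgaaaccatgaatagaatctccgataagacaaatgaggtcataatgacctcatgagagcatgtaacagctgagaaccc
Sspn: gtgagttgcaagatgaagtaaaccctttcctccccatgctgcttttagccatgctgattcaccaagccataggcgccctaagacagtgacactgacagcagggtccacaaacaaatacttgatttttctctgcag
Arntl2: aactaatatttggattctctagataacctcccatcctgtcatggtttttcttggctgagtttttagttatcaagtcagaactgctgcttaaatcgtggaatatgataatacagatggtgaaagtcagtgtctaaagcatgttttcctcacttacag
Etfrf1: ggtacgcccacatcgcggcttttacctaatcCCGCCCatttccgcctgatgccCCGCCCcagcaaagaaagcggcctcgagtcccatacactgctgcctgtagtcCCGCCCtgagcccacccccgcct
The Etfrf1 stretch holds 3 GC boxes, all in the reverse direction, with first bases from -97 to -23 counted from the RefSeq start, and its whole window has 16 CpG pairs and 59.6% G and C. By contrast the window of Lmntd1 has 5 CpG pairs and no match to any of the 4 motifs, that of Arntl2 has 1 CpG pair and no match, and that of Sspn has 2 CpG pairs and 1 CCAAT box at -220, in the part not printed. Medians over all 32851 promoters of the table were 6 CpG pairs and 52.4% G and C. The RefSeq start lies 179394 bases from the start of the GENCODE gene for Lmntd1, 9475 bases for Arntl2, 232 bases for Sspn and 0 bases for Etfrf1. The stretches printed for Lmntd1, Arntl2 and Sspn thus lie inside their GENCODE genes, and other starts of these genes are not covered. Their contrast with Etfrf1 therefore sets sequence within a gene beside sequence before one. Casc1, on the opposite strand, starts 129 bases from Etfrf1, and its window holds 4 GC boxes. That window covers the printed Etfrf1 stretch, so the 4 include the 3 of Etfrf1.

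Over the block, 31 of 45 members and 11 of the 14 called members had a promoter entry. An E-box was found in 1 of the 31 windows, that of Bhlhe41 at -153, against 6.0% of all promoters. A GC box was found in 17 of 31 (4 of the 11 called) against 32.7%, a CCAAT box in 11 (5 called) against 33.8%, and a TATA box in 1, that of Resf1 (0 called), against 12.4%. These matches describe letters in a window, and where windows overlap, as for Casc1 and Etfrf1, the same letters count in both.

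Before the values, the libraries are placed, because WT CFA library 11 stands apart in this block. On a scale where 0 is the mean of the WT and 1 the mean of the RGS4KO libraries, averaged over treatments, its median position over the 14 called members was 0.64. The other 3 WT CFA libraries lay at -0.08, -0.27 and -0.17, and the 4 WT naive libraries between -0.21 and 0.18. RGS4KO naive libraries lay between 0.75 (library 6) and 1.22 (library 5), and RGS4KO CFA libraries between 0.73 (library 13) and 1.17 (libraries 14 and 15). In 14 of 14 called members library 11 was the WT CFA library nearest the RGS4KO level. The same was so for 10 of 35 called genes in a stretch of chromosome 7 (starts from 16098458 to 19920729), 21 of 25 in a stretch of chromosome 2 (starts from 118475850 to 122738503) and 197 of 637 (30.9%) of all other called genes. Within other groups, WT naive library 1 was nearest the RGS4KO level in 10 of the 14 called members. RGS4KO naive library 6 and RGS4KO CFA library 13 were each nearest the WT level in 8 of the 14. Library 11 had 53.9 M counts, within the range of 18.1 M to 78.8 M over the 16 libraries, and summed thalamic relay markers of 1346.0 CPM, within the 1285.8 to 1426.9 CPM of its group. What sets it apart was not tested. Genotype differences of the called members after CFA are given with and without it, and their averages over treatments with it only. As library 11 was the nearest to the RGS4KO level in all 14 called members, leaving it out enlarges their genotype differences by construction. The values and counts without it are a description and no better estimate.

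**Figure D1:**
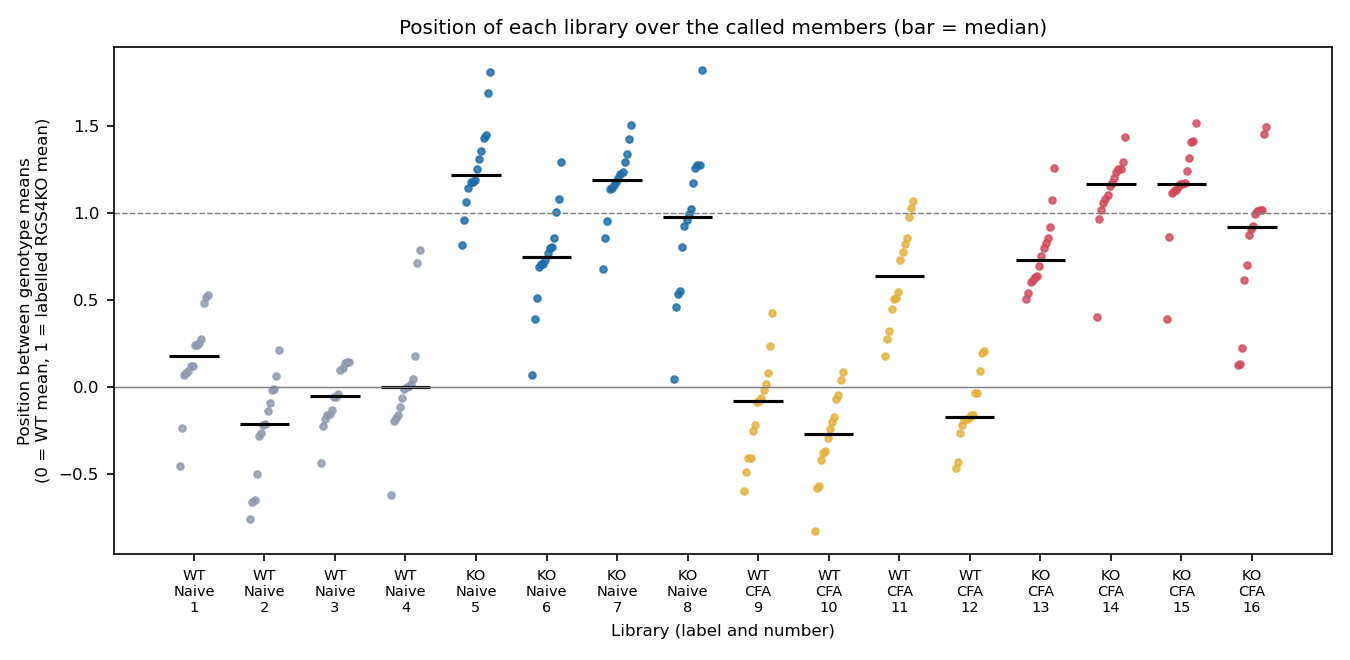
Position of each library between the genotypes for the 14 called members, with 0 at the mean of the WT and 1 at the mean of the RGS4KO libraries on a linear scale; each point is a member and each bar the median of a library. WT CFA library 11 has its median at 0.64, the other 7 WT libraries at or below 0.18.

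The tissue label was checked by markers. Of 16 thalamic relay markers, 15 had a mean of 1 CPM or more (Gbx2 was at 0 to 0.242 CPM), with sums of 1270.7 to 1438.9 CPM that overlapped between genotypes. Slc17a6 was the highest, at 431.6 to 535.1 CPM, and Prkcd (9.82 to 18 CPM) and Lef1 (7.27 to 15.8 CPM) were among the lower ones. Markers of midbrain dopamine and serotonin neurons were also present, at sums of 173.1 to 1494.8 CPM with overlapping genotypes. Among them, Tph2 was at 58.9 to 646.2 CPM and Slc6a4 at 42.1 to 513.9 CPM. The mean sum of these midbrain markers was 1107.2 CPM in WT naive and 569.0 in RGS4KO naive. After CFA it was 577.5 CPM in WT and 828.2 in RGS4KO. The thalamic and midbrain markers do not settle which region was punched. The 7 listed oculomotor and Edinger-Westphal markers, 4 of them at a mean of 1 CPM or more and Phox2a at 0 to 0.0865 CPM, summed to 32.5 to 62.1 CPM in WT naive, 37.7 to 284.4 in RGS4KO naive, 279.0 to 416.2 in WT CFA and 72.9 to 208.8 in RGS4KO CFA. Their sums were thus lower in every RGS4KO CFA than in every WT CFA library, and library 11 had 365.8 CPM. They were also higher in every WT CFA than in every WT naive library. The part of neighbouring cells in the genotype values, naive and after CFA, and in the CFA values, within the block and outside it, was not tested. In bulk punches a change in the cells of a type and a change in RNA per cell cannot be told apart.

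Along the block, 14 of 45 members (31.1%) were called different between genotypes when naive and CFA differences were averaged, against 3.73% of all 18350 genes tested (called means an adjusted p under 0.05 in edgeR). As the block was chosen on this contrast, the share is a description. Higher in libraries labelled RGS4KO were 5 members, Lrmp, Lmntd1, Bhlhe41, Sspn and Itpr2, and lower were 9, Etfrf1, Gm15704, 4930479D17Rik, Stk38l, Arntl2, Klhl42, Gm15767, Ccdc91 and Rps4l. All 5 that were higher are protein coding, while the 9 that were lower held 5 protein-coding genes, 3 noncoding RNAs and 1 pseudogene. The median size of the average difference was 0.11 on the log2 scale in the block, 0.03 in the 20 genes of the 5 Mb before it, from 140 Mb on, and 0.05 over all genes. None of those 20 was called by edgeR or DESeq2, although 1 was called by edgeR without WT CFA library 10 (against 3.18% of all genes). Of the 20, 2 had an unadjusted p under 0.05, against 2630 of all 18350 genes tested. On the rest of chromosome 6, 17 of 833 genes were called (2.04%).

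The called members lay at the left of the block. Their starts ran over 3.24 Mb, from 145115653 (Lrmp) to 148354656 (Rps4l). By megabase from the left edge, 6 of 12, 4 of 10, 3 of 7, 1 of 9 and 0 of 7 members were called, and the 11 members that start beyond Rps4l had differences of at most 0.41 in size on the log2 scale. Within the span, 19 of 33 members were not called. Directions were mixed, for among the 13 pairs of called neighbours 5 changed sign, with 4 of the 6 called members in the first megabase higher and all 4 in the third and the fourth lower.

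**Figure D2:**
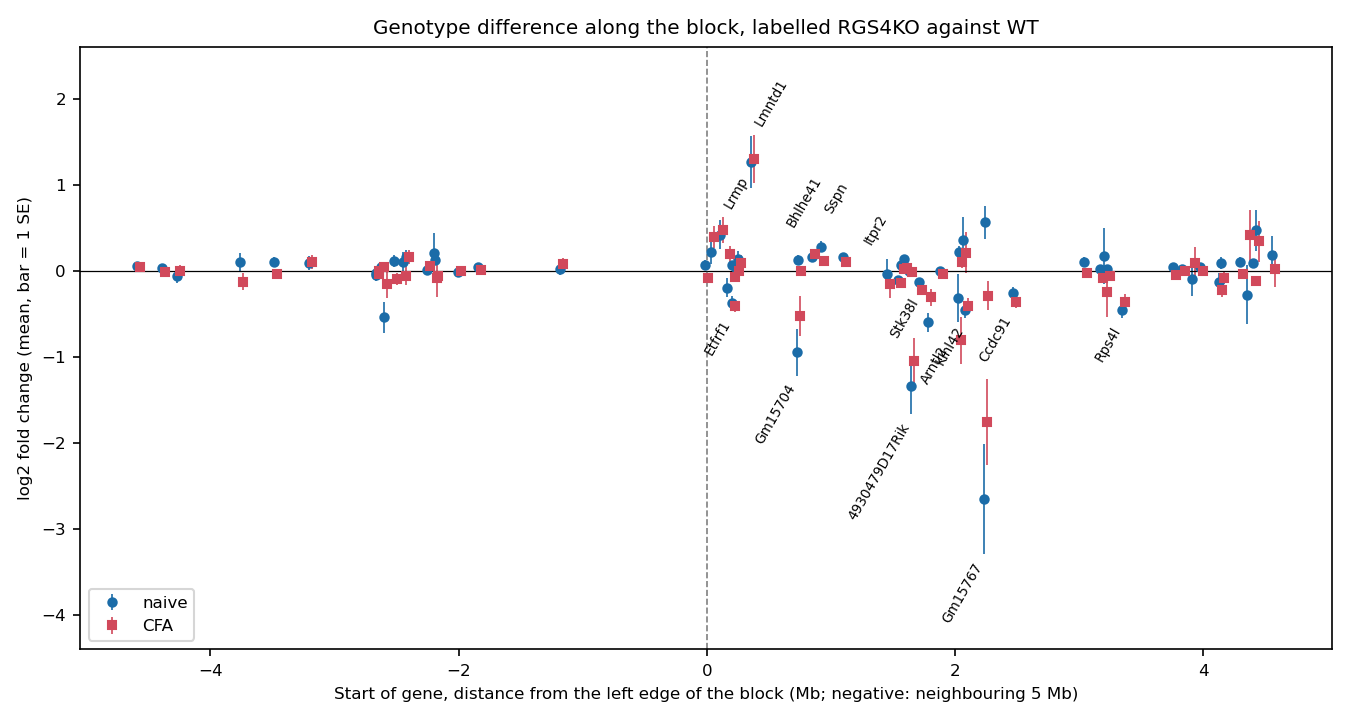
Difference between libraries labelled RGS4KO and WT (log2 fold change, bars 1 SE) against the distance of each gene's start from the left edge of the block in Mb, for naive (circles) and CFA (squares), with the neighbouring 5 Mb at negative distances. The named points are the 14 called members, which span 3.24 Mb at the left of the block and lie on both sides of 0.

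In naive libraries, 7 members were called (1 higher, Sspn, and 6 lower, Etfrf1, 4930479D17Rik, Arntl2, Klhl42, Gm15767 and Rps4l), a share of 15.6% against 1.45% of all genes. After CFA there were 5 (1 higher, Lmntd1, and 4 lower, Etfrf1, Stk38l, Klhl42 and Ccdc91), a share of 11.1% against 1.6%. Both counts moved with single libraries. The naive count was 1 without RGS4KO library 5, 2 without WT library 2, 3 without WT library 3 or 4 and 4 without RGS4KO library 8. Over all genes, 0.801% to 1.02% were called in these fits. The CFA count was 1 without RGS4KO library 14, 2 without WT library 9 or 10 or RGS4KO library 15, 3 without WT library 12 or RGS4KO library 16, and 9 without WT library 11. In those fits 1.05% to 1.59% of all genes were called. In the average, leaving out each library in turn gave 12 to 15 called members, against 2.73% to 3.97% of all genes. The lowest count, 12, was without RGS4KO naive library 5. Without library 11 there were 15 (against 3.5% of all genes), which included the 14 named above.

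Libraries of the 2 genotypes did not overlap for 14 of 45 members in naive, against 7.23% of all genes, and for 11 after CFA, against 8.03%. For 5 members, Etfrf1, Lmntd1, Klhl42, Gm15767 and Ccdc91, they did not overlap in either treatment and the direction was the same, against 1.29% of all genes. All 14 called members had 1 direction in both treatments, which calling on the average favours. Of the 31 others, 14 did, against 52.1% of all genes tested.

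Among the members that were higher, Lmntd1 (a gene for a protein with a lamin tail domain, chr6:145365134-145614319, minus strand) had the largest difference. Its level was 1.89, 1.52, 1.31 and 1.03 CPM in WT naive libraries 1 to 4 and 4.07, 3.03, 4.3 and 2.33 CPM in RGS4KO naive libraries 5 to 8. After CFA it was 0.941, 1.04, 2.31 and 1.06 CPM in WT libraries 9 to 12 and 2.43, 3.75, 4.28 and 3.25 CPM in RGS4KO libraries 13 to 16. The genotypes did not overlap in either treatment, although WT library 11 came close to the lowest RGS4KO library. The log2 difference was 1.26 ± 0.30 (SE) in naive, 1.30 ± 0.28 after CFA, 1.72 after CFA without library 11, and 1.28 ± 0.21 (2.42-fold) on average. The low pseudogene 1700073E17Rik lies within Lmntd1 on the opposite strand and had an average difference of 1.17, and since the kit does not mark strand, reads of overlapping genes are uncertain.

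Lrmp (chr6:145115653-145174934, plus strand), which encodes a membrane protein of the endoplasmic reticulum first known from lymphoid cells, was at about 1 CPM. In libraries 1 to 8 it was at 0.738, 0.815, 0.835 and 1.11 CPM in WT and 1.15, 1.21, 1.1 and 1.18 CPM in RGS4KO. In libraries 9 to 16 it was at 0.753, 0.806, 1.14 and 0.875 CPM in WT and 1.14, 1.23, 1.26 and 1.37 CPM in RGS4KO. Naive genotypes overlapped by WT library 4, and after CFA WT library 11 and RGS4KO library 13 were level to 3 digits. The average log2 difference was 0.44 ± 0.11 (1.36-fold), and this call was the least stable of the 14. It was lost without any 1 of 11 libraries (1, 2, 3, 5, 6, 8, 9, 10, 12, 14 and 16), where the difference was 0.41 to 0.45, and also with DESeq2, without a filter on low counts and after thinning to the shallowest library. After CFA the difference was 0.47, or 0.61 without library 11.

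Bhlhe41 (chr6:145858243-145865558, minus strand), the clock repressor also known as DEC2, was at 67, 61.7, 63.9 and 69.1 CPM in WT naive and 77.4, 68.7, 73.2 and 72.2 CPM in RGS4KO naive. The CFA libraries had 58.9, 56.2, 64.2 and 61.3 CPM in WT and 70.2, 66, 75 and 63.9 CPM in RGS4KO. The genotypes overlapped slightly in both treatments, by WT library 4 against RGS4KO library 6 and by WT library 11 against RGS4KO library 16. The log2 difference after CFA was 0.19, or 0.22 without library 11, and the average was 0.17 ± 0.04 (1.13-fold).

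Sspn (chr6:145931641-145965223, plus strand) was at 20.1, 19.8, 19.7 and 19.9 CPM in WT naive and 24.8, 23, 23.3 and 25.2 CPM in RGS4KO naive. Its CFA levels were 18.1, 18.7, 22.9 and 19.8 CPM in WT and 21.7, 23.1, 21 and 20.3 CPM in RGS4KO. Naive genotypes were apart, while after CFA WT library 11 was above 3 of the 4 RGS4KO libraries. The log2 difference was 0.28 ± 0.06 in naive and 0.11 ± 0.06 after CFA, or 0.19 without library 11, and 0.20 ± 0.04 (1.15-fold) on average.

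Itpr2 (chr6:146108299-146502223, minus strand) had the smallest average difference of the called members, 0.13 ± 0.03 on the log2 scale (1.1-fold). Its levels were 44.6, 42.8, 44.9 and 45.7 CPM in WT naive and 50.8, 46, 51 and 51.2 CPM in RGS4KO naive. After CFA they were 45.6, 44.8, 50.3 and 46.6 CPM in WT and 50.3, 50.1, 50.6 and 50.1 CPM in RGS4KO. The naive groups were only just apart, at RGS4KO library 6, and WT library 11 lay inside the narrow RGS4KO range after CFA, above the other 3 WT libraries. The CFA difference was 0.10, or 0.14 without library 11.

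**Figure D3:**
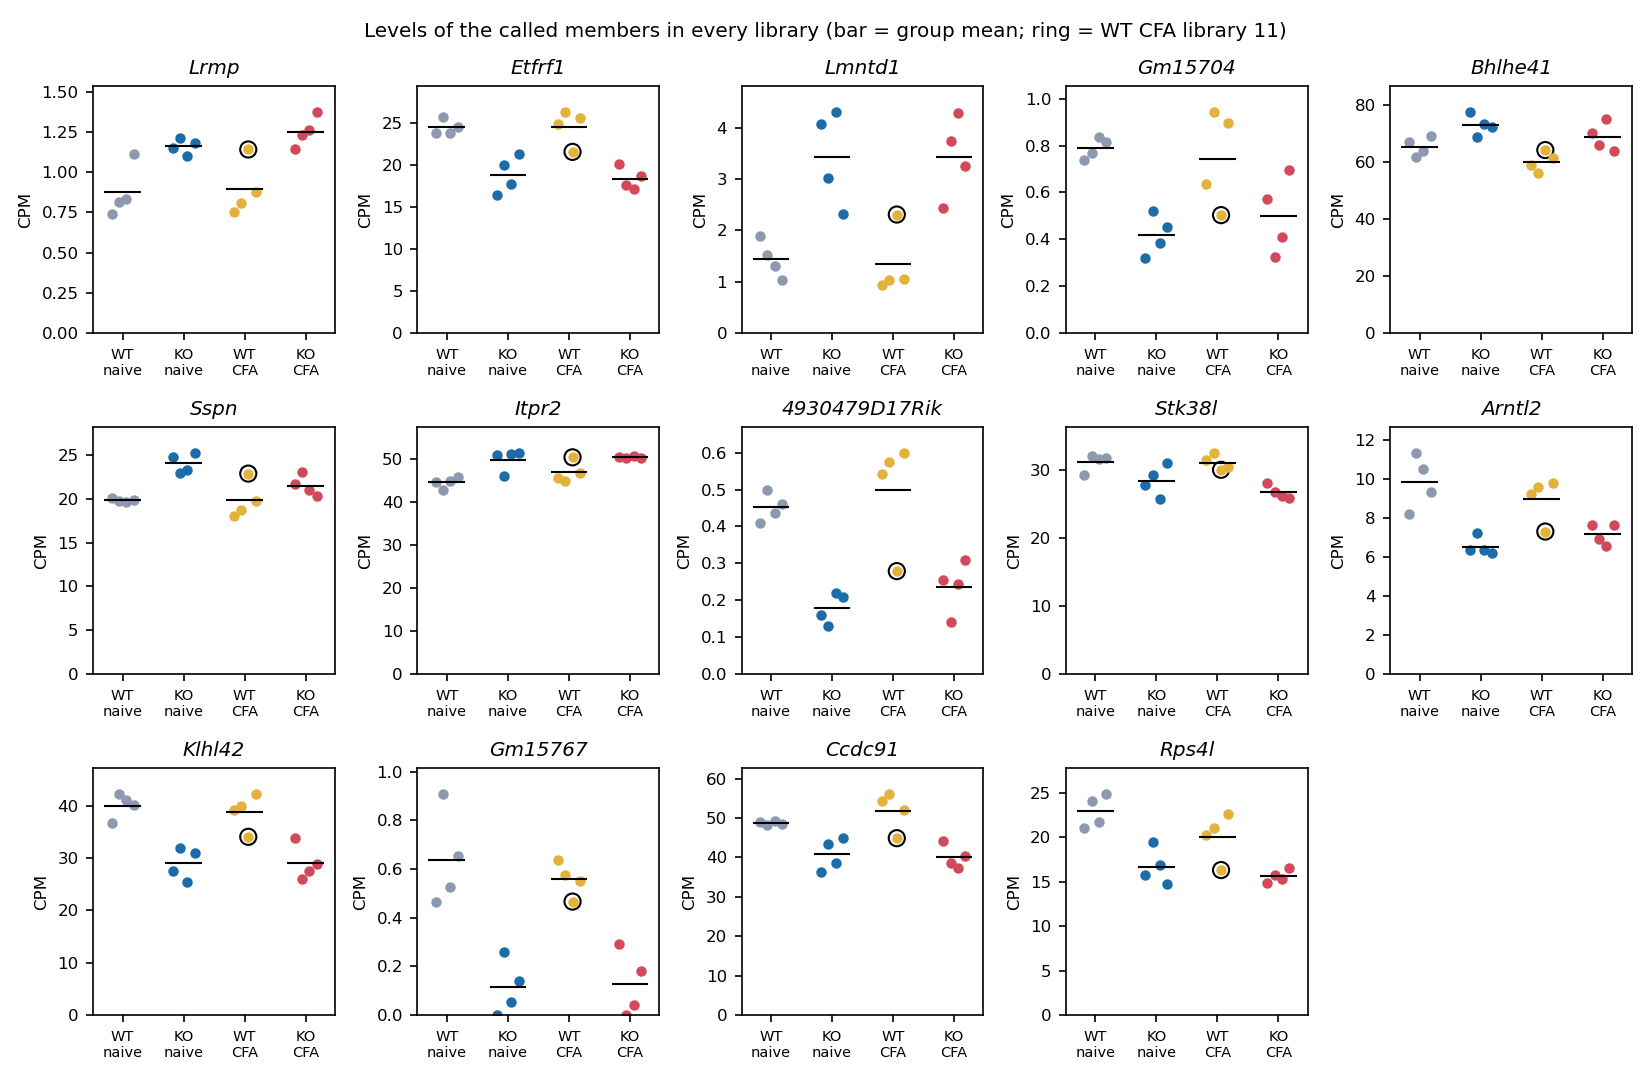
Level of each of the 14 called members in every library on a linear CPM axis from 0, by group (WT naive, RGS4KO naive, WT CFA, RGS4KO CFA), with 1 point per library, bars at group means and a ring around WT CFA library 11. The ringed point is the WT CFA value nearest the RGS4KO level in all 14 panels.

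Of the protein-coding members that were lower, Etfrf1 (chr6:145211134-145216939, plus strand), a mitochondrial regulator of the electron transfer flavoprotein, was at 23.8, 25.8, 23.9 and 24.6 CPM in WT naive and 16.5, 20, 17.8 and 21.3 CPM in RGS4KO naive. After CFA it was at 24.9, 26.3, 21.6 and 25.6 CPM in WT and 20.1, 17.6, 17.2 and 18.7 CPM in RGS4KO. Every RGS4KO library was below every WT library within its treatment, and library 11 was the lowest WT library of all. The log2 difference was -0.38 ± 0.08 in naive, -0.41 ± 0.07 after CFA, or -0.47 without library 11, and -0.40 ± 0.05 (0.76-fold) on average. Casc1, 129 bases away start to start on the other strand, had an average difference of -0.00.

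Klhl42 (chr6:147091379-147112778, plus strand), an adaptor of cullin ubiquitin ligases, was at 36.8, 42.2, 41.1 and 40.1 CPM in WT naive and 27.5, 32, 25.5 and 31 CPM in RGS4KO naive. With CFA the levels were 39.3, 39.9, 34.1 and 42.2 CPM in WT and 33.8, 26, 27.6 and 28.9 CPM in RGS4KO. The genotypes were apart in both treatments, and after CFA WT library 11 and RGS4KO library 13 nearly met. The log2 difference was -0.46 ± 0.09 in naive, -0.41 ± 0.09 after CFA, or -0.47 without library 11, and -0.44 ± 0.06 (0.739-fold) on average.

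Ccdc91 (chr6:147475828-147632612, plus strand), which encodes a partner of GGA adaptors at the trans-Golgi network, was at 49.1, 48.2, 49.3 and 48.5 CPM in WT naive and 36.2, 43.5, 38.7 and 45 CPM in RGS4KO naive. In CFA libraries they were 54.3, 56, 44.9 and 52.1 CPM in WT and 44.2, 38.5, 37.3 and 40.3 CPM in RGS4KO. The 4 WT naive libraries were close together and the RGS4KO libraries spread widely below them, and library 11 was again the lowest WT library. The log2 difference after CFA was -0.36, or -0.43 without library 11, and the average was -0.31 ± 0.05 (0.806-fold).

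Arntl2 (chr6:146796055-146833529, plus strand) was at 8.18, 11.3, 10.5 and 9.35 CPM in WT naive and 6.36, 7.22, 6.35 and 6.2 CPM in RGS4KO naive. CFA libraries had 9.2, 9.58, 7.3 and 9.81 CPM in WT and 7.63, 6.94, 6.56 and 7.62 CPM in RGS4KO. Naive genotypes were apart, and after CFA WT library 11 fell below 2 RGS4KO libraries. The log2 difference was -0.60 ± 0.11 in naive and -0.31 ± 0.10 after CFA, or -0.40 without library 11, and -0.45 ± 0.07 (0.73-fold) on average. Its neighbour Stk38l (chr6:146724995-146778812, plus strand), an NDR kinase gene that ends 17242 bases before Arntl2, was the least changed of the lower members. Stk38l was at 29.2, 32.1, 31.6 and 31.8 CPM in WT naive and 27.7, 29.3, 25.7 and 31 CPM in RGS4KO naive. After CFA Stk38l was at 31.4, 32.4, 30 and 30.4 CPM in WT and 28.1, 26.7, 26.1 and 25.9 CPM in RGS4KO. Its genotypes overlapped in naive and were apart after CFA, with log2 differences of -0.22 after CFA, -0.23 without library 11 and -0.17 ± 0.04 (0.886-fold) on average.

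Rps4l (chr6:148354656-148355598, plus strand) is annotated as a transcribed pseudogene of a ribosomal protein gene. It was at 21, 24.1, 21.7 and 24.8 CPM in WT naive and 15.8, 19.4, 16.9 and 14.7 CPM in RGS4KO naive. CFA levels were 20.2, 21, 16.3 and 22.6 CPM in WT and 14.8, 15.8, 15.3 and 16.5 CPM in RGS4KO. Naive genotypes were apart, and after CFA library 11 fell below RGS4KO library 16. The log2 difference after CFA was -0.36, or -0.45 without library 11, and the average was -0.41 ± 0.07 (0.752-fold). Its value is uncertain, since the copy Rps4l-ps matches 83.7% of its transcript at 93.5% identity and Rps4l lies inside Tmtc1 on the other strand, which had an average difference of -0.02.

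The 3 noncoding RNAs that were lower were all low, and their roles are not described here. Gm15767 (chr6:147242527-147243801, minus strand) had 17, 40, 29 and 24 reads in WT naive and 0, 6, 1 and 4 reads in RGS4KO naive. After CFA Gm15767 had 27, 30, 25 and 24 reads in WT and 23, 0, 1 and 7 reads in RGS4KO. In CPM these were 0.465 to 0.906 against 0 to 0.259 in naive and 0.466 to 0.635 against 0 to 0.292 after CFA, so the genotypes were apart in both. With 2 RGS4KO libraries at 0 reads the fitted difference depends on the prior count. It was -2.21 ± 0.41 on the log2 scale on average (0.216-fold), the largest in the block in either direction, and -1.76 after CFA, or -1.84 without library 11.

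The RNA 4930479D17Rik (chr6:146657218-146665403, plus strand) had 15, 22, 24 and 17 reads in WT naive and 7, 3, 4 and 6 reads in RGS4KO naive. After CFA it had 23, 30, 15 and 26 reads in WT and 20, 6, 6 and 12 reads in RGS4KO. On the CPM scale WT naive was at 0.41 to 0.498 and RGS4KO naive at 0.13 to 0.221, without overlap, while after CFA WT library 11, at 0.279 CPM, lay below RGS4KO library 16, at 0.31 CPM. The log2 difference after CFA was -1.05, or -1.26 without library 11, and -1.19 ± 0.21 (0.437-fold) on average. Its nearest member Med21, 6485 bases away on the same strand, had -0.02.

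Gm15704 (chr6:145738693-145746273, minus strand) was at 0.738, 0.77, 0.835 and 0.816 CPM in WT naive and 0.322, 0.519, 0.386 and 0.453 CPM in RGS4KO naive. After CFA it was at 0.635, 0.941, 0.503 and 0.898 CPM in WT and 0.572, 0.326, 0.408 and 0.697 CPM in RGS4KO. Naive genotypes were apart and CFA genotypes overlapped. The average log2 difference was -0.74 ± 0.18 (0.599-fold), and the call was lost without RGS4KO naive library 5, where the difference was -0.66. After CFA it was -0.53, or -0.69 without library 11. Rassf8, a member of the Ras association family whose start lies 475 bases away on the other strand, had 0.06.

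Levels compared per kilobase of exon differed widely among the called members. In WT naive libraries Rps4l was at 24.3, Ccdc91 at 17.0, Bhlhe41 at 9.74 and Etfrf1 at 9.16 CPM per kb, while Lrmp was at 0.215 and Lmntd1 at 0.185 CPM per kb.

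Bcat1, just outside the block, was at 247.3, 227.5, 234.1 and 227.6 CPM in WT naive and 222.2, 245.2, 248.2 and 264.8 CPM in RGS4KO naive. After CFA Bcat1 was at 251.0, 261.1, 260.9 and 260.9 CPM in WT and 248.9, 267.2, 221.8 and 242.3 CPM in RGS4KO. Its genotypes overlapped in both treatments and its average difference was -0.01.

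After CFA, averaged over genotypes, edgeR called 1 of 45 members, a share of 2.22% that is near the 1.81% of all genes. It was Caprin2 (chr6:148842492-148896237, minus strand), which encodes an RNA-binding protein, and its log2 difference was -0.14 ± 0.03 (SE, adjusted p = 0.0287, edgeR). Caprin2 was at 24.1, 25.1, 24.8 and 26.1 CPM in WT naive and 22, 23.3, 23.9 and 22.7 CPM in WT CFA libraries. In RGS4KO it was at 25.6, 25.4, 24.8 and 25.8 CPM in naive and 21, 24.5, 23.2 and 22.7 CPM in CFA libraries. Each CFA group lay below the naive group of its genotype. The call was lost without any 1 of 9 libraries (2, 3, 4, 5, 6, 9, 12, 13 and 16), with adjusted p from 0.0501 to 0.0642 and differences of -0.14 to -0.12. Without library 11 it stood at -0.15 (adjusted p = 0.0314, edgeR). DESeq2, which called 3.12% of all genes in this average, also called Dennd5b there (0.10, adjusted p = 0.0196). With edgeR, Dennd5b had an adjusted p of 0.0573.

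In WT, 0 of 45 members were called after CFA by edgeR, against 2.23% of all genes. An unadjusted p under 0.05 was found for 11 of the 45, against 3223 of all 18350 genes tested. The lowest p belonged to Bicd1, a dynein adaptor, at 80.3 ± 2.95 CPM (SD, n = 4) after CFA against 72.5 ± 2.89 in naive (log2 difference 0.15, adjusted p = 0.0665, edgeR). Next were Dennd5b, a Rab activator, with 0.13 (adjusted p = 0.0763), and Tmtc1, a membrane protein of the endoplasmic reticulum, with 0.11 (adjusted p = 0.104). DESeq2 called 2 members in this contrast, Bicd1 (adjusted p = 0.0365) and Dennd5b (adjusted p = 0.0366), against 4.15% of all genes by DESeq2. With edgeR both were called without RGS4KO naive library 8 (adjusted p = 0.0437 and 0.0443, against 4.08% of all genes). Bicd1 was also called without RGS4KO CFA library 13 (adjusted p = 0.041, edgeR, against 2.07% of all genes). Without WT library 11 the differences were 0.12 for Bicd1, Dennd5b and Tmtc1, with adjusted p of 0.193, 0.19 and 0.173.

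In RGS4KO, 0 members were called by edgeR or DESeq2, against 0.185% of all genes by edgeR. Of the 45, 3 had an unadjusted p under 0.05, against 1433 of all 18350 genes tested. The 3 members were Caprin2 with -0.16 (adjusted p = 0.282, edgeR), Sspn with -0.17 (adjusted p = 0.482) and the ribosomal pseudogene Rps25-ps1 with -0.21 (adjusted p = 0.632). The interaction, which asks whether the genotype difference changed with CFA, also called 0 members by either tool, against 0.0654% of all genes by edgeR. There 4 of the 45 had an unadjusted p under 0.05, against 1810 of all 18350 genes tested. Low p belonged to Bicd1 with -0.21 (adjusted p = 0.223, edgeR) and Pthlh, the gene of a parathyroid-hormone-like hormone, with -0.84 (adjusted p = 0.258). Pthlh was at 0.713 ± 0.0663 CPM in WT naive, 1.04 ± 0.159 in RGS4KO naive, 0.977 ± 0.172 in WT CFA and 0.845 ± 0.185 in RGS4KO CFA (SD, n = 4 each). Without WT library 11 the interaction was -0.18 for Bicd1 (adjusted p = 0.386, edgeR) and -0.72 for Pthlh (adjusted p = 0.431).

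**Figure D4:**
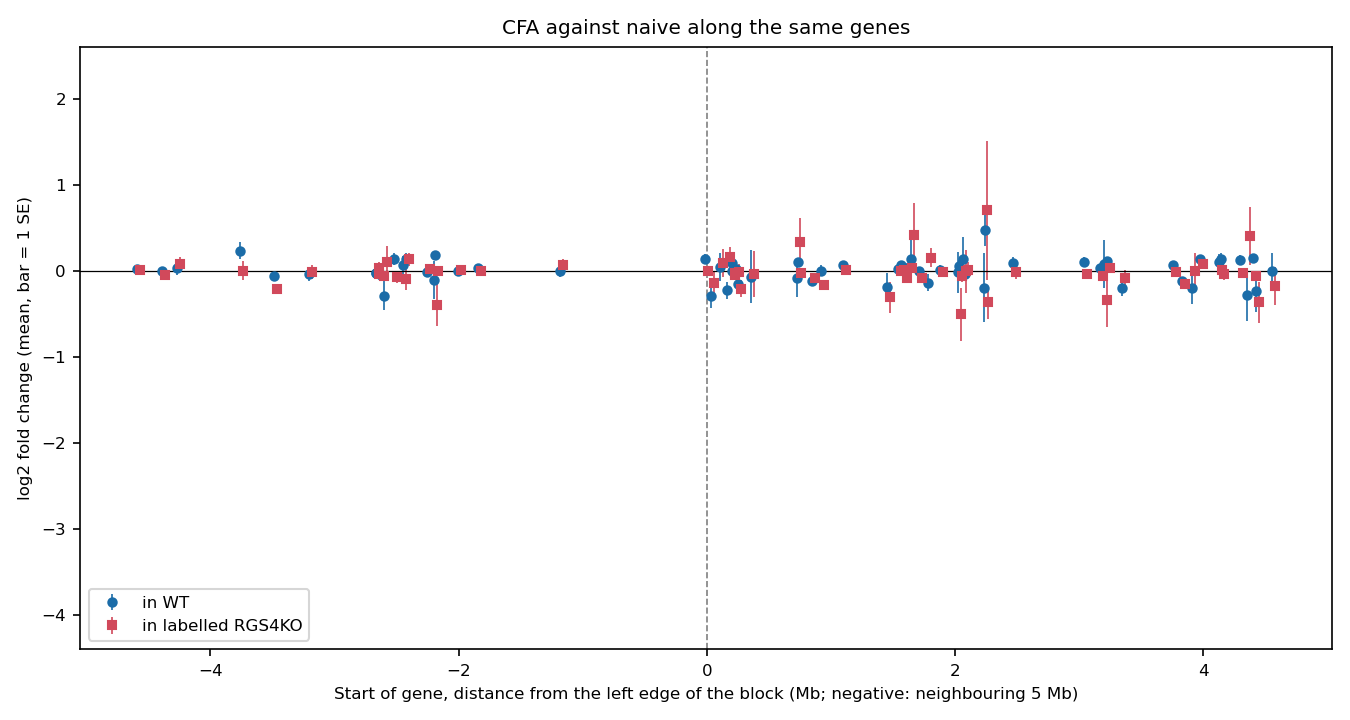
CFA against naive for the same genes on the same axes (log2 fold change, bars 1 SE; distance of each start from the left edge of the block in Mb), in WT (circles) and in libraries labelled RGS4KO (squares). No member was called in either genotype by edgeR, and the member changes lay between -0.51 and 0.70.

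Partners of the members elsewhere in the genome were read from lists. Rises and falls given for them are differences between groups of libraries, and their cause was not tested. Of 17 clock and E-box genes other than Bhlhe41 and Arntl2, edgeR called 4 in WT after CFA, against 2.23% of all genes. Npas2, the CLOCK-like partner of BMAL proteins, rose by 0.57 on the log2 scale (from 6.09 ± 0.153 to 9.04 ± 0.601 CPM, SD, n = 4, adjusted p = 0.000327, edgeR) and Clock rose by 0.13 (adjusted p = 0.0388). Per1, a period gene, fell by 0.51 (adjusted p = 0.0363) and Dbp, a clock output factor, fell by 0.30 (adjusted p = 0.00971). In RGS4KO after CFA 2 were called, against 0.185% of all genes, Npas2 with 0.40 (adjusted p = 0.0297) and Dbp with -0.30 (adjusted p = 0.0359). In the CFA average 4 were called, against 1.81% of all genes, Npas2 (0.48), Dbp (-0.30), Arntl (0.14) and Rorb (-0.19). Between genotypes Bhlhe40 was called in naive (0.17) and Dbp (0.18) and Tef (0.09) in the average, where edgeR called 1.45% and 3.73% of all genes. The interaction called 0 of the 17 by either tool, against 0.0654% of all genes by edgeR. There 4 of the 17 had an unadjusted p under 0.05, against 1810 of all 18350 genes tested. Without WT library 11 the calls of Clock (0.12, adjusted p = 0.115) and Per1 (-0.50, adjusted p = 0.0989) in WT and of Tef (0.09) between genotypes were lost. Those of Npas2 (0.56 in WT and 0.48 on average), Dbp (-0.31 and -0.30), Arntl (0.15) and Rorb (-0.21) after CFA and of Dbp between genotypes (0.18) were kept.

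Of 22 Ras to ERK genes, beside the member Rassf8, 0 were called in any of the 7 contrasts by edgeR or DESeq2. Per contrast, 0 to 3 of the 22 had an unadjusted p under 0.05. Of all 18350 genes tested, 1433 (CFA in RGS4KO) to 3223 (CFA in WT) did. Over all genes, edgeR called 0.0654% (interaction) to 3.73% (genotype average) per contrast. It called 2.23% in WT after CFA, and between genotypes 1.45% in naive and 1.6% after CFA. The counts in the lists that follow stand beside the same shares. Of 15 inositol trisphosphate receptor and calcium store genes, Itpkb was called higher in the genotype average (0.12, or 0.13 without WT library 11) and Atp2a2, the calcium pump of the endoplasmic reticulum, in WT after CFA (0.13, adjusted p = 0.0349, edgeR), which was lost without WT library 11 (adjusted p = 0.0871). Among 17 genes of branched-chain amino acid breakdown, only Ivd was called by edgeR, with genotype differences of 0.41 after CFA and 0.29 on average, or 0.49 and 0.33 without WT library 11. Whether Ivd lies in a stretch with other genes called between genotypes was not examined, so its call shows no link to Bcat1. Among 13 dystrophin complex genes, Dtna was called lower in naive libraries labelled RGS4KO (-0.14).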

How the data were processed

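For each of the 16 mRNA libraries (TruSeq RNA version 2, an unstranded kit) the authors deposited raw counts of reads per Ensembl gene. The submitters' processing notes name TopHat, DESeq2 and build mm10. The counter, annotation and strand option are not given in the sources used. The 5 closing summary lines of every table (38% to 39.9% of listed reads) were left out. Totals were 18.1 M to 78.8 M counts (median 42.6 M). Library numbers run through the series, and library, not mouse, is the unit. Replicates differed beyond sampling noise (chi-square per degree of freedom 3.38 to 13.2), and all were kept.

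GENCODE positions matched 37607 of 38924 gene IDs. Counts were fitted with edgeR 4.0.16 in R 4.3.3 (filterByExpr with a minimum count of 10, 18350 genes, TMM scaling, robust quasi-likelihood, 1 mean per group over all 16 libraries). There were 7 contrasts, with two-sided p-values adjusted by Benjamini-Hochberg over all genes and called under 0.05. Levels are CPM on TMM-scaled library sizes, and SE refers to the log2 difference. The fit was tested on simulated counts. DESeq2 1.42.0, other scaling and filters, thinning and left-out libraries were the alternatives. Near-identical transcripts were sought with BLAST+ 2.17.0 (at least 90% identity over 50% of the length).

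Members and lists were chosen with earlier results of these data known. Values in every library are given for members called in any contrast and for Bhlhe41, Arntl2, Itpr2, Bcat1 and Sspn. Where a CFA contrast or the interaction called none, the 3 members with the lowest p are named, and from each list up to 4 called genes per contrast. Results for some genes that meet this rule are not reported here. Genes that overlap another (Lrmp, Etfrf1, Lmntd1, Sspn, Itpr2, Ccdc91, Rps4l and Bcat1 among those named) are uncertain without strand.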

Additional observations from a re-analysis of the deposited data

Results flagged for a closer look

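In each group of 4 libraries, the highest and lowest library were compared with the rest for 17 named genes by Dixon's rule. A library stood far from the other 3 in 4 of 68 groups, and chance gives about 1 in 20. Lmntd1 was at 2.31 CPM in WT CFA library 11, against 0.941 to 1.06 CPM in the other 3. Itpr2 was at 46 CPM in RGS4KO naive library 6, against 50.8 to 51.2 CPM, and Arntl2 was at 7.22 CPM in the same library, against 6.2 to 6.36 CPM. Bcat1 was at 251.0 CPM in WT CFA library 9, against 260.9 to 261.1 CPM.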

How the results depend on the processing

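No paired analysis was possible because the library numbers run from 1 to 16 and none is shared between groups. Counts are of called members. With each library left out in turn, naive genotype calls ranged from 1 (without RGS4KO library 5) to 9 (without WT CFA library 11) around 7, and CFA genotype calls from 1 (without RGS4KO library 14) to 9 (without WT CFA library 11) around 5. Shares of all genes in these fits were 0.98% and 1.37% for the naive calls and 1.21% and 1.59% for the CFA calls. Averaged genotype calls ranged from 12 to 15, CFA calls in WT from 0 to 2 and in the CFA average from 0 to 2, CFA calls in RGS4KO and the interaction stayed at 0, and calls in the 5 Mb before the block ranged from 0 to 1 (without WT CFA library 10). At 12 and 15 averaged calls, 2.81% and 3.5% of all genes were called. The counts of 2, without RGS4KO naive library 8, stood against 4.08% in WT and 2.67% in the CFA average. The 1 call before the block stood against 3.18%. Without RGS4KO naive libraries 7 and 8, naive genotype calls were 1 (against 0.492% of all genes) and CFA average calls 0 (against 1.41%). With no filter on low counts, CFA genotype calls were 3 (against 1.06% of all genes), CFA calls in WT 1 (against 1.31%) and in the CFA average 2 (against 1.07%). With only the groups compared, CFA genotype calls were 3 (against 1.67% of all genes) and CFA calls in WT 1 (against 3.37%). With DESeq2, CFA genotype calls were 8 (against 2.53% of all genes), CFA calls in WT 2 (against 4.15%) and in the CFA average 2 (against 3.12%). Thinned to the shallowest library, averaged genotype calls were 9 (against 2.61% of all genes) and CFA average calls 0 (against 1.27%). The cause of these shifts was not tested. Of 27 calls of single members, 11 were kept in every setting run and 0 reversed direction, but 4930479D17Rik, 1 of the 11 in its average, did not enter the thinned fit. All 11 are genotype calls, for which the block was chosen, so their being kept is a description. Depth limits Gm15767, 4930479D17Rik and the other members below 1 CPM.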

Other observations

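Under the level minimum, 4 further genes of the same 5 Mb had enough reads for the model. Gm15763, a processed pseudogene with a mean of 0.202 CPM, had an average genotype difference of 1.82 ± 0.38 (SE) on the log2 scale, Gm15707 had -1.66 ± 0.49, Far2os2 had 0.16 ± 0.23 and 1700073E17Rik had 1.17 ± 0.35. Gm15763 was the 1 of these that was called in the genotype average.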
